A study of Mus musculus with 10 samples.

Results

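Platelet and megakaryocyte genes were followed in RNA sequencing libraries of mouse splenic macrophages. The set held 9 genes of the 55414 in the count table, chosen by name: the chemokine genes Pf4 and Ppbp, the tubulin gene Tubb1, the integrin genes Itga2b and Itgb3, and the receptor genes Gp9, Gp1ba, Gp1bb and Gp6. The libraries were 5 of macrophages labelled Fpr2KO, without the gene of formyl peptide receptor 2, through which myeloid cells sense peptides and lipids, and 5 of macrophages of C57BL/6N genotype (WT). In both groups spleen cells were selected magnetically for F4/80, a macrophage surface protein, and polyadenylated RNA was sequenced. The labels give neither the age and sex of the mice, nor the strain background or construct of the knockout, nor whether each replicate is 1 animal, so the p-values reflect no more than how far these samples scatter, and that scatter may be technical.

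Platelets are cell fragments shed by megakaryocytes, which lie in the bone marrow and, in mice, also in the red pulp of the spleen. Platelets carry a store of megakaryocyte RNA, and they are filled with granules that hold chemokines and adhesion proteins. They bind damaged vessel walls through glycoprotein receptors and each other through the integrin aIIbb3. Megakaryocytes arise from a progenitor shared with the erythroid lineage, and both lineages use the transcription factor GATA1 with its cofactor FOG1, which is encoded by Zfpm1.

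Depth ranged from 15865820 to 19060188 assigned counts per library, and values are in CPM, a count relative to the library total after TMM scaling in edgeR. Fpr2, the targeted gene, had 0 reads in every Fpr2KO library and between 19.2 and 33.6 CPM in WT libraries, which matched the labels. Adgre1, which encodes F4/80, was measured at 524.5 ± 63.4 CPM in Fpr2KO and 524.0 ± 60.1 CPM in WT (SD, n = 5 each), and the 14 red pulp macrophage markers summed to between 9669 and 12452 CPM in Fpr2KO and between 9743 and 12552 CPM in WT. The libraries also held RNA of other cells: 8 B cell markers summed to 3436 ± 379.4 CPM in Fpr2KO and 2941 ± 576.7 CPM in WT. The platelet and megakaryocyte genes were a small part of this RNA. Their sum was 64.4, 50.4, 47.4, 50.1 and 61.5 CPM in Fpr2KO replicates 1 to 5, against 84.6, 85.7, 78.8, 74.4 and 56.8 CPM in WT replicates 1 to 5. Only WT replicate 5 lay within the range of the Fpr2KO libraries.

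Of the 9 genes, 8 had enough counts to be tested and Gp1bb did not. All 8 had lower estimates in Fpr2KO, with a median log2 fold change of -0.48 (Fpr2KO over WT), where the median of the 14669 genes tested was 0.01. None passed a false discovery rate (FDR, Benjamini-Hochberg over all genes tested) of 0.05 by the quasi-likelihood test of edgeR, a rule met by 0.0682% of all genes tested in either direction and by 0.0614% with a lower level in Fpr2KO. At an unadjusted p under 0.05, 4 of the 8 were lower (Ppbp, Tubb1, Pf4 and Itga2b), which held for 4.92% of all genes. In bulk RNA, fewer platelets or megakaryocytes and less RNA per cell cannot be told apart. For none of the 8 were the groups fully apart with Fpr2KO below WT, which held for 0.566% of all genes.

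**Figure D1:**
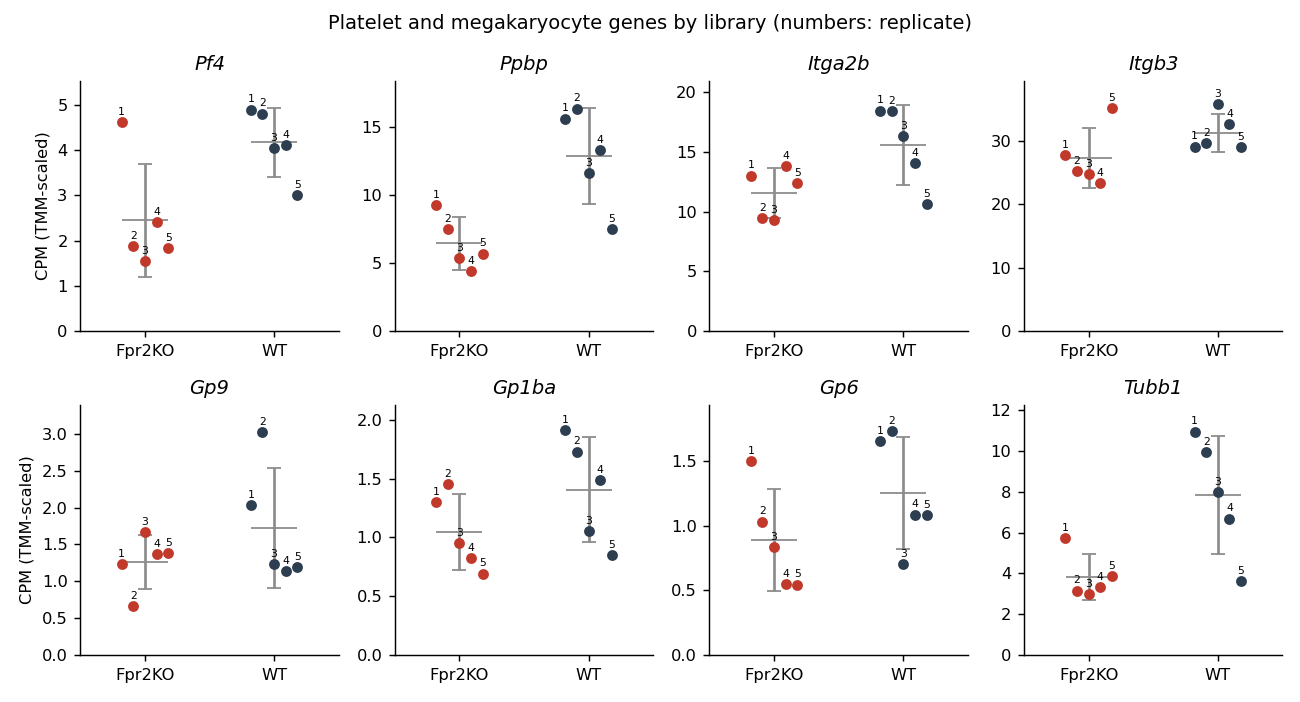
CPM of the 8 tested platelet and megakaryocyte genes in each library, Fpr2KO on the left and WT on the right of each panel. Points are libraries with their replicate number, and grey bars show the mean and SD (n = 5). For Ppbp, Tubb1 and Pf4 most Fpr2KO libraries sit below the WT libraries, and WT replicate 5 is the WT library nearest to them.

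The 2 chemokine genes lie next to each other on chromosome 5 in the same orientation, with 2371 bases between them. In GRCm38, Ppbp (ENSMUSG00000029372) spans chr5:90768518-90770063 and Pf4 (ENSMUSG00000029373) chr5:90772435-90773383, both on the plus strand. The 250 bases upstream of the RefSeq transcription start are shown for these neighbours, which were among the genes with the larger differences, and for Gp1ba and Gp6, platelet receptor genes whose windows hold GATA letters. All are written 5′ to 3′ along the gene, from the GRCm38.p6 promoter table of RefSeq, at chr5:90768268-90768517 (plus strand) for Ppbp, chr5:90772185-90772434 (plus) for Pf4, chr11:70638872-70639121 (plus) for Gp1ba and chr7:4397745-4397994 (minus) for Gp6. Capitals mark matches to GATA letters (AGATAA, with TGATAA as another form, AGATAG as the third form and TGATAG as the fourth form). They also mark matches to the ETS letters CAGGAAG, and shorter ETS forms were not searched. Both strands were searched, so that a match on the other strand reads as its reverse complement.
Ppbp: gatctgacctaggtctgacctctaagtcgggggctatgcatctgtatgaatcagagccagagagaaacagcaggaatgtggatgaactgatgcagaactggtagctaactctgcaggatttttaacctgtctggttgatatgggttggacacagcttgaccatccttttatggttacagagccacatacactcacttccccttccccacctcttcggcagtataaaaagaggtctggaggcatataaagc
Pf4: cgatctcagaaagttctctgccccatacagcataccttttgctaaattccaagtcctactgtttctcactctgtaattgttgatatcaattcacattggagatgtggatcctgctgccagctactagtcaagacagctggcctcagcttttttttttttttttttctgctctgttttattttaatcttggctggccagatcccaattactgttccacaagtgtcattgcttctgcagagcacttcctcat
Gp1ba: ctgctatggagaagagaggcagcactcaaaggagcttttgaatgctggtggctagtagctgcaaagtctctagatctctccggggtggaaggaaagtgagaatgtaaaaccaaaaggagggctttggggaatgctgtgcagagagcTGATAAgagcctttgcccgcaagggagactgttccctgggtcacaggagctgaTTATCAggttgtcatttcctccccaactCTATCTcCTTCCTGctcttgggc
Gp6: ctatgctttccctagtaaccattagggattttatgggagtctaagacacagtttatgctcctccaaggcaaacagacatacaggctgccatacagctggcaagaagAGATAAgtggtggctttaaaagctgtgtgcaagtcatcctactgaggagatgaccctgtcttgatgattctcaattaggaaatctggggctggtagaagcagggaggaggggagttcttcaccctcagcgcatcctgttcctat

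A window was found for 8 of the 9 genes, all but Itgb3. GATA letters occurred in 3 of these windows (Gp1ba, Gp1bb and Gp6) and in 26.5% of the 32851 upstream windows of all genes. Gp1ba held 3 such matches, the nearest of them between 23 and 18 bases before the start (-23 to -18), and 1.35% of all windows held 3 or more. That cut-off equals the count of Gp1ba, the highest of the 8 windows, so the share is no test of it. The ETS letters CAGGAAG occurred in 1 of the 8 windows, that of Gp1ba at -16 to -10, next to the nearest GATA letters without overlapping them, and in 10.8% of all windows. The windows of Ppbp, Pf4, Tubb1, Itga2b and Gp9 held no match to these exact GATA or ETS letters, and shorter ETS forms in them were not counted. These are matches of letters and not measured binding sites.

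Ppbp encodes pro-platelet basic protein, the precursor of the neutrophil-attracting chemokine CXCL7. It was measured at 9.24, 7.46, 5.35, 4.43 and 5.68 CPM in Fpr2KO replicates 1 to 5, against 15.6, 16.3, 11.6, 13.2 and 7.49 CPM in WT replicates 1 to 5. Fpr2KO replicate 1 lay above WT replicate 5, and the other 4 Fpr2KO libraries lay below all WT libraries. The log2 fold change was -1.002 (SE 0.23, FDR = 0.165 by edgeR), a level 2.00-fold lower in Fpr2KO. Ppbp passed the FDR with DESeq2 (log2 fold change -1.01, SE 0.23, FDR = 0.00436), by which 0.675% of all genes passed with a lower level in Fpr2KO. It also passed in edgeR without WT replicate 5 (log2 fold change -1.15, SE 0.20, FDR = 0.0297), where 0.114% of all genes passed with a lower level in Fpr2KO. WT replicate 5 was the lowest WT library for Ppbp, so leaving it out widens the difference and is no separate support. Ppbp passed in no fit that left out another single library. With the replicate number as a block, Ppbp was the only 1 of the 8 that passed, where 0.348% of all genes passed with a lower level. Over 18 alternative settings its FDR ranged from 0.00436 to 0.392.

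Pf4 encodes platelet factor 4, a chemokine of platelet alpha granules that binds heparin. It was measured at 4.62, 1.88, 1.55, 2.41 and 1.83 CPM in Fpr2KO replicates 1 to 5, against 4.90, 4.81, 4.04, 4.11 and 3.01 CPM in WT. Fpr2KO replicate 1 resembled the WT libraries, and the other 4 Fpr2KO libraries lay below all of them. The log2 fold change was -0.77 (SE 0.27, FDR = 0.388 by edgeR), and without Fpr2KO replicate 1 it was -1.13. Other CXC chemokine genes of the same family act on neutrophils. Cxcl2 was measured at 115.2 ± 34.8 CPM in Fpr2KO and 228.8 ± 89.7 CPM in WT (SD, n = 5 libraries each; log2 fold change -0.99, SE 0.33, FDR = 0.395 by edgeR). Cxcl1 was measured at 2.35 ± 1.18 CPM in Fpr2KO and 3.44 ± 1.86 CPM in WT, and Cxcl3 at 0.655 ± 0.431 CPM in Fpr2KO and 1.33 ± 0.711 CPM in WT. The log2 estimates of Cxcl1 (-0.56, SE 0.50) and Cxcl3 (-1.02, SE 0.49) did not pass either. Cxcl5 had 3 reads over the Fpr2KO libraries and 9 over the WT libraries, too few to be tested.

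Tubb1 encodes beta-1 tubulin, the isotype that forms the marginal microtubule band of platelets. It was measured at 5.72, 3.15, 2.97, 3.33 and 3.85 CPM in Fpr2KO replicates 1 to 5, against 10.9, 9.94, 7.96, 6.68 and 3.63 CPM in WT replicates 1 to 5. The WT libraries were spread widely: replicate 5 lay within the Fpr2KO range, and the other 4 lay above every Fpr2KO library. Tubb1 (ENSMUSG00000016255, chr2:174450695-174457882, plus strand) was estimated at -1.04 on the log2 scale (SE 0.27, FDR = 0.206 by edgeR). It passed with DESeq2 (log2 fold change -1.05, FDR = 0.0205), with an FDR from 0.0205 to 0.468 over 18 alternatives. Tubb1 also passed in edgeR without WT replicate 5 (-1.23, FDR = 0.0314), its lowest WT library, whose removal widens the difference. The beta tubulins that other cells use had no estimate of this size. Tubb4b was measured at 85.1 ± 5.68 CPM in Fpr2KO and 65.7 ± 6.51 CPM in WT (SD, n = 5 libraries each; log2 fold change 0.37, SE 0.08, FDR = 0.14 by edgeR). On the log2 scale Tubb5 was estimated at 0.19 (SE 0.08), Tubb2a at 0.04 (SE 0.09) and Tubb6 at -0.27 (SE 0.16). Per exon length, Tubb5 was between 25.7 and 48.1 times as abundant as Tubb1 in Fpr2KO libraries and between 11.3 and 38.4 times in WT libraries.

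Itga2b and Itgb3 encode the aIIb and b3 subunits of the fibrinogen receptor of platelets. Itga2b is largely restricted to the megakaryocyte lineage and early progenitors, whereas b3 also pairs with the aV subunit (Itgav) in macrophages and other cells. Itga2b (ENSMUSG00000034664, chr11:102453297-102470122, minus strand) was measured at 13.01, 9.46, 9.28, 13.8 and 12.4 CPM in Fpr2KO replicates 1 to 5, against 18.5, 18.4, 16.3, 14.0 and 10.6 CPM in WT. All 5 Fpr2KO libraries lay below the WT mean, and WT replicate 5 lay among them (log2 fold change -0.43, SE 0.16, FDR = 0.423 by edgeR). Itgb3 (ENSMUSG00000020689, chr11:104608000-104670476, plus strand) was measured at 27.7, 25.3, 24.7, 23.3 and 35.2 CPM in Fpr2KO, against 29.1, 29.7, 35.8, 32.6 and 28.95 CPM in WT. Fpr2KO replicate 5 was near the highest WT library and the other 4 lay below all WT libraries (log2 fold change -0.20, SE 0.11, FDR = 0.601 by edgeR). Without Fpr2KO replicate 5 the Itgb3 estimate was -0.31 (SE 0.10, FDR = 0.276 by edgeR). Its partner Itgav was measured at 52.6 ± 5.44 CPM in Fpr2KO and 57.98 ± 4.53 CPM in WT (log2 fold change -0.14, SE 0.09, FDR = 0.628 by edgeR). Per exon length the ratio of Itga2b to Itgb3 was between 0.38 and 0.641 in Fpr2KO and between 0.397 and 0.687 in WT, and the groups overlapped. The ratio of Itgav to Itgb3 was between 0.878 and 1.23 in Fpr2KO and between 0.864 and 1.21 in WT.

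Gp1ba, Gp1bb and Gp9 encode subunits of the GPIb-IX-V complex, the platelet receptor for von Willebrand factor, and Gp5 encodes its associated subunit. Gp1ba (ENSMUSG00000050675, chr11:70639122-70642036, plus strand) was measured at 1.30, 1.46, 0.952, 0.82 and 0.692 CPM in Fpr2KO replicates 1 to 5, against 1.91, 1.73, 1.05, 1.48 and 0.852 CPM in WT. These values rest on 89 reads in Fpr2KO and 121 in WT, and the groups overlapped (log2 fold change -0.44, SE 0.30, FDR = 0.656 by edgeR). Gp9 (ENSMUSG00000030054, chr6:87778072-87779768, plus strand) was measured at 1.24, 0.667, 1.67, 1.37 and 1.38 CPM in Fpr2KO, against 2.04, 3.03, 1.23, 1.14 and 1.19 CPM in WT. WT replicates 1 and 2 were high, and the other 3 WT libraries lay within the Fpr2KO range (log2 fold change -0.45, SE 0.33, FDR = 0.676 by edgeR). Without WT replicate 2 the Gp9 estimate was -0.14. Gp5 was measured at 1.11 ± 0.426 CPM in Fpr2KO and 1.88 ± 1.02 CPM in WT (SD, n = 5 libraries each; log2 fold change -0.77, SE 0.39, FDR = 0.547 by edgeR).

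Gp1bb had 1 read over the 5 Fpr2KO libraries and 2 reads over the 5 WT libraries, so no difference could be measured from these counts. Gp1bb (ENSMUSG00000050761, chr16:18620317-18622403, minus strand) shares 91.1% of its exon bases with Sept5, a septin gene on the same strand whose transcripts run through it. The sources used here do not say how the counting treated reads that fall on both genes, so the near absence of reads says nothing of its transcript level. Sept5 itself had 52 reads in Fpr2KO and 66 in WT (log2 fold change -0.37, SE 0.33, FDR = 0.73 by edgeR). The other 8 genes had no exon in common with another gene of the annotation, and at most 1.43% of their 31-base sequences occurred elsewhere.

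Gp6 encodes glycoprotein VI, the platelet receptor for collagen, which signals through the Fc receptor gamma chain (Fcer1g). Gp6 (ENSMUSG00000078810, chr7:4363965-4397744, minus strand) was measured at 1.496, 1.03, 0.833, 0.547 and 0.544 CPM in Fpr2KO replicates 1 to 5, against 1.65, 1.73, 0.703, 1.085 and 1.079 CPM in WT. The groups overlapped, with Fpr2KO replicate 1 near the highest WT libraries and WT replicate 3 near the lowest Fpr2KO libraries (log2 fold change -0.51, SE 0.34, FDR = 0.655 by edgeR). Without Fpr2KO replicate 1 the Gp6 estimate was -0.77 (FDR = 0.636 by edgeR). Fcer1g, which macrophages and other myeloid cells also use, was measured at 300.3 ± 30.5 CPM in Fpr2KO and 335.5 ± 52.7 CPM in WT (log2 fold change -0.16, SE 0.11, FDR = 0.658 by edgeR). Per exon length, Fcer1g was between 1487 and 4064 times as abundant as Gp6 in Fpr2KO libraries and between 1287 and 3934 times in WT libraries.

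**Figure D2:**
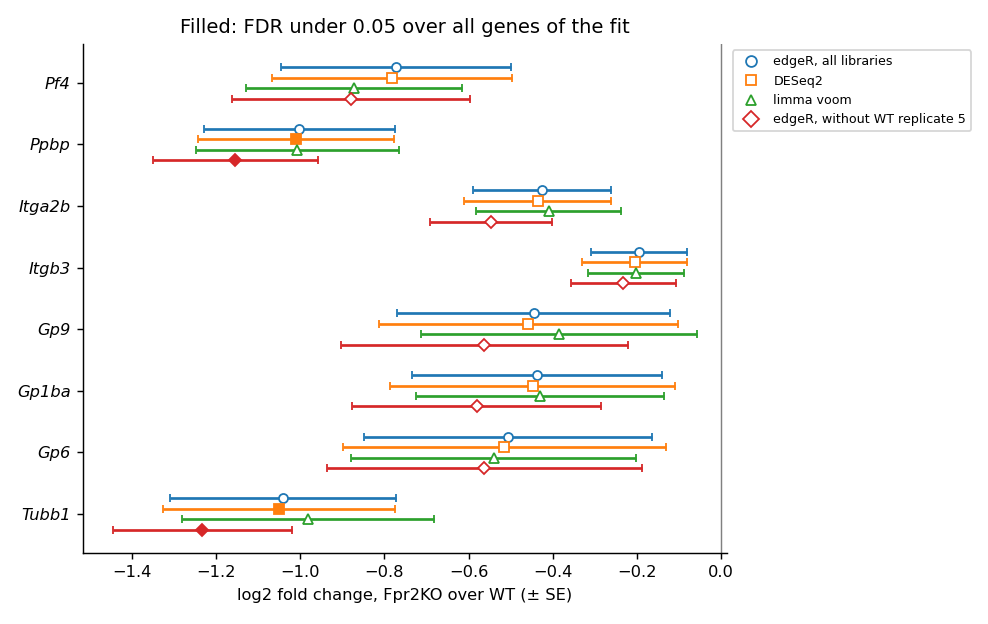
log2 fold change of the 8 tested genes, Fpr2KO over WT, with bars of 1 SE, from edgeR with all libraries, DESeq2, limma voom and edgeR without WT replicate 5. Filled symbols mark an FDR under 0.05 over all genes of that fit: Ppbp and Tubb1 with DESeq2 and without WT replicate 5, and no gene in the other 2 fits shown. WT replicate 5 was the lowest WT library for Ppbp and Tubb1, and none of the 8 passed when another single library was left out.

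On a scale per exon length (RPKM, CPM per kilobase of exon), Ppbp was the most abundant of the set, at 5.94 ± 1.77 RPKM in Fpr2KO and 11.9 ± 3.26 RPKM in WT (SD, n = 5 each). In WT, Pf4 (5.79 ± 1.05 RPKM), Tubb1 (5.57 ± 2.05 RPKM) and Itgb3 (5.29 ± 0.504 RPKM) followed and did not differ from each other beyond their spread. In Fpr2KO, Itgb3 (4.62 ± 0.798 RPKM) came next after Ppbp, ahead of Pf4 (3.41 ± 1.73 RPKM) and Tubb1 (2.71 ± 0.797 RPKM). Itga2b followed at 2.12 ± 0.384 RPKM in Fpr2KO and 2.86 ± 0.607 RPKM in WT, and Gp9 at 1.43 ± 0.418 RPKM in Fpr2KO and 1.96 ± 0.925 RPKM in WT. Gp1ba (0.384 ± 0.119 RPKM in Fpr2KO and 0.517 ± 0.164 RPKM in WT) and Gp6 (0.151 ± 0.0672 RPKM in Fpr2KO and 0.212 ± 0.0733 RPKM in WT) were lowest among the genes tested. Itgb3 made up 49.8% of the summed CPM of the set in Fpr2KO and 41.1% in WT. Without Itgb3 the sum was 36.7, 25.1, 22.6, 26.7 and 26.3 CPM in Fpr2KO replicates 1 to 5, against 55.5, 56.0, 43.0, 41.8 and 27.9 CPM in WT replicates 1 to 5.

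**Figure D3:**
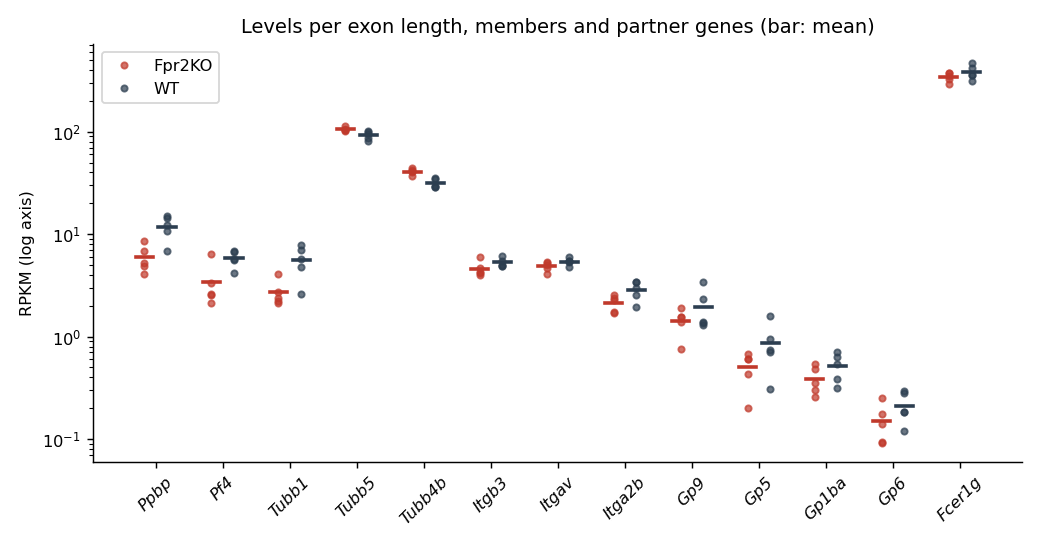
RPKM on a log axis of members of the set and of partner genes, Fpr2KO (red, left) and WT (dark, right). Points are libraries and bars are means (n = 5). Tubb5 and Fcer1g lie far above Tubb1 and Gp6, whereas Itgav and Itgb3 lie at like levels.

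The genes of the set differed in how closely they followed each other from library to library. WT replicate 5 was the lowest WT library for 6 of the 8 genes, and Fpr2KO replicate 1 the highest Fpr2KO library for 4. The mean of the 8 genes on the log2 scale, relative to all 10 libraries, was 0.15 in Fpr2KO replicate 1 and between -0.43 and -0.36 in the other 4 Fpr2KO libraries. In WT libraries it was 0.61, 0.66, 0.16, 0.22 and -0.20 in replicates 1 to 5. With group means subtracted, Tubb1 and Ppbp followed the mean of the other genes most closely over the 10 libraries (Pearson's r = 0.90 and 0.86). Pf4 (r = 0.73), Gp1ba (0.68), Itga2b (0.66) and Gp6 (0.60) came next, Gp9 followed weakly (0.34) and Itgb3 did not (-0.08). Pairs of single genes ranged from 0.87 for Ppbp with Gp1ba to -0.38 for Itgb3 with Gp6, and Itga2b with Gp6 was at 0.11. These correlations describe libraries that differ in depth and composition, and they were not tested.

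**Figure D4:**
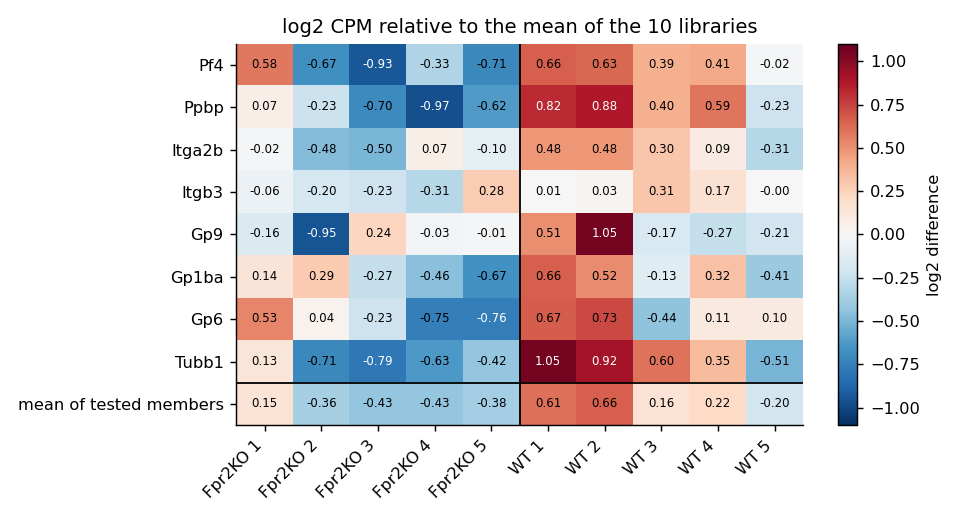
log2 CPM of each tested gene in each library relative to its mean over the 10 libraries, Fpr2KO left of the line and WT right of it, with the mean of the 8 genes in the bottom row. Red is higher and blue lower; Fpr2KO replicate 1 and WT replicate 5 differ most from the other libraries of their groups in the bottom row.

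The genes outside the set whose group-centred pattern was most like the mean of the 8 over the 10 libraries were Peg10 (r = 0.93), Wnt11 (0.92), Mest (0.92), Gm9762 (0.91), Ctla2a (0.90), Calm2 (0.90), Bcl2a1d (0.89) and Rufy4 (0.88). Of these, Ctla2a, a cysteine protease inhibitor gene, is also in the list of megakaryocyte genes below. All 8 were picked as the highest correlations among the genes tested, over only 10 libraries, and were not tested against chance. Levels were low for Peg10 (0.533 CPM in Fpr2KO and 1.04 CPM in WT) and Mest (0.584 CPM in Fpr2KO and 0.815 CPM in WT). Wnt11 was measured at 2.91 ± 0.749 CPM in Fpr2KO and 4.92 ± 1.70 CPM in WT (SD, n = 5 libraries each; log2 fold change -0.76, SE 0.25, FDR = 0.342 by edgeR). The other 7 did not pass the FDR either, and Calm2, at a log2 fold change of -0.01 (SE 0.09), shared the pattern within groups with no like difference between them.

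Genes with roles in platelets and megakaryocytes outside the set were followed in 6 lists that held 95 genes, of which 92 were tested. The lists were written with earlier results of these data known. Macrophages and other cells also use many of these genes, so the lists do not measure platelet RNA alone. The signalling list, for one, summed to 4475 CPM in Fpr2KO and 4839 CPM in WT, beside 54.7 and 76.1 CPM for the set. None passed the FDR of 0.05 by edgeR in either direction. Of the 92, 66 had lower estimates in Fpr2KO, where 46.8% of all genes tested did, with a median log2 fold change of -0.13 beside 0.01 for all genes. At an unadjusted p under 0.05, 18 were lower and 3 higher, where 4.92% and 4.88% of all genes were.

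Among 21 receptor genes tested, 17 had lower estimates (median log2 fold change -0.27). The smallest p-values were those of the laminin-binding integrin gene Itga6 (log2 fold change -0.40, SE 0.15), the tetraspanin gene Cd9 (-0.24, SE 0.09), the serotonin transporter gene Slc6a4 (-0.58, SE 0.25) and Treml1, a receptor of platelet alpha granules (-0.63, SE 0.28). Of the 21, 4 had higher estimates: Pear1 (0.21, SE 0.12), F11r (0.10, SE 0.12), the podoplanin receptor gene Clec1b and Tbxa2r (0.02, SE 0.30). Clec1b and the ADP receptor gene P2ry12 had nearly the same mean level in both groups. These 4 genes and P2ry12 were named here after their values were seen. Clec1b was measured at 43.6 ± 9.92 CPM in Fpr2KO and 42.6 ± 4.74 CPM in WT (log2 fold change 0.03, SE 0.14), and P2ry12 at 37.4 ± 8.43 CPM in Fpr2KO and 37.5 ± 5.24 CPM in WT (-0.01, SE 0.14; SD, n = 5 each). Clec1b and P2ry12 are also used by some macrophages, and whether this bears on their estimates was not tested.

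Among 17 granule cargo genes, 15 had lower estimates (median -0.25). Thbs1 encodes thrombospondin 1, which platelets store and macrophages also make. It was measured at 83.3, 61.4, 49.2, 32.9 and 64.4 CPM in Fpr2KO replicates 1 to 5, against 139.4, 121.7, 114.7, 98.6 and 106.6 CPM in WT, and the groups did not overlap (log2 fold change -0.997, SE 0.21, FDR = 0.15 by edgeR). The proteoglycan gene Srgn (-0.34, SE 0.13), the growth factor gene Vegfc (-0.64, SE 0.26) and the coagulation factor gene F13a1 (-0.72, SE 0.29) followed. F13a1 was also listed as a marker of classical monocytes. Of 4 eicosanoid enzyme genes, all had lower estimates. Alox12, the platelet-type lipoxygenase gene, was measured at 4.29, 2.67, 2.08, 2.95 and 3.66 CPM in Fpr2KO, against 8.08, 8.64, 7.32, 6.40 and 4.54 CPM in WT, again without overlap (log2 fold change -1.16, SE 0.21, FDR = 0.0845 by edgeR). Among the 92 genes tested outside the set, the groups were fully apart for 2 with Fpr2KO lower and 2 with Fpr2KO higher. Over all genes tested the shares were 0.566% lower and 0.825% higher. Ptgs1, Tbxas1 and Pla2g4a, which make thromboxane in platelets and are also used by macrophages, were estimated nearer to WT on the log2 scale (Ptgs1 -0.06, SE 0.10; Tbxas1 -0.20, SE 0.13; Pla2g4a -0.09, SE 0.12).

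Among 17 signalling genes 11 had lower estimates (median -0.03), and among 20 cytoskeleton and granule-forming genes 14 did (median -0.10). In the signalling list the smallest p-values were those of Rap1b, a small GTPase of integrin activation (-0.30, SE 0.12), the G protein subunit gene Gng11 (-0.60, SE 0.28), the adaptor gene Lcp2 (-0.24, SE 0.11) and the talin gene Tln1 (-0.17, SE 0.08). Rab27b, a GTPase of dense granule secretion, was measured at 0.43 ± 0.236 CPM in Fpr2KO and 1.13 ± 0.375 CPM in WT (SD, n = 5 libraries each; log2 fold change -1.41, SE 0.39, FDR = 0.236 by edgeR). Ctla2a (-0.75, SE 0.22), Cavin2, a coat protein gene of caveolae (-0.62, SE 0.20), and Diaph1, a formin gene (-0.16, SE 0.07), followed.

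The 13 transcription factor genes tested were divided, with 5 lower and 8 higher estimates (median 0.03). Zfpm1 was measured at 25.5 ± 1.59 CPM in Fpr2KO and 15.2 ± 3.08 CPM in WT, with all Fpr2KO libraries above all WT libraries, which held for 0.825% of all genes (log2 fold change 0.75, SE 0.13, FDR = 0.0565 by edgeR). Gata1, with 7.30 ± 1.22 CPM in Fpr2KO and 4.33 ± 1.05 CPM in WT, showed the same separation (log2 fold change 0.75, SE 0.18, FDR = 0.184 by edgeR). On the same scale Tal1 was estimated at 1.27 (SE 0.39) and Meis1 at -0.43 (SE 0.18). Zfpm1, Gata1 and Tal1 are used by erythroid cells as well as by megakaryocytes.

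**Figure D5:**
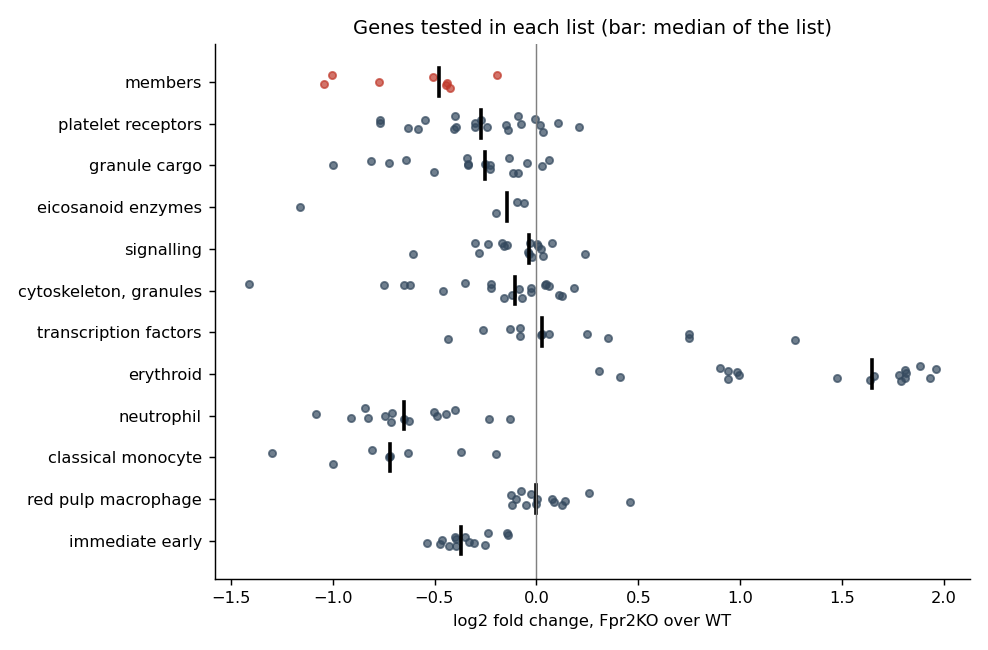
log2 fold change, Fpr2KO over WT, of each gene tested in the set (members, red), in the 6 other platelet and megakaryocyte lists, and in lists of other cell types and of immediate early genes. Bars are medians: -0.48 for the set, 1.65 for erythroid, -0.65 for neutrophil, -0.72 for classical monocyte and 0.00 for red pulp macrophage markers.

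Markers of other cell types differed in estimate between the groups as well, and their part in the differences of the platelet genes was not tested. Their lists were written with earlier results of these data known, so counts of estimates in 1 direction are no test. Over all 14669 genes tested, 46.8% had lower estimates and 7799 genes had higher ones. Erythroid markers were all higher in estimate (18 of 18 tested, median log2 fold change 1.65) and summed to between 4869 and 11408 CPM in Fpr2KO and between 1727 and 6787 CPM in WT. Neutrophil markers were all lower in estimate (15 of 15 tested, median -0.65) and summed to between 540.0 and 1010 CPM in Fpr2KO and between 958.1 and 1596 CPM in WT. Classical monocyte markers were all lower in estimate (8 of 8, median -0.72), with sums of 673.4 to 925.6 CPM in Fpr2KO and 937.5 to 1459 CPM in WT. Immediate early genes, which stimulated cells induce quickly, were all lower in estimate (14 of 14, median -0.37), with sums of 12182 to 15682 CPM in Fpr2KO and 14973 to 22440 CPM in WT. Red pulp macrophage markers had 7 lower and 7 higher estimates. None of these lists held a gene past the FDR by edgeR, and none of their genes was at 0 in all libraries. WT replicate 5, the WT library with the lowest sum of the set, had the highest monocyte sum (1459 CPM) and the lowest immediate early sum (14973 CPM) of the WT libraries. Its neutrophil sum (958.1 CPM) was the lowest too, but close to that of WT replicate 4 (971.4 CPM). Fpr2KO replicate 1, with the highest Fpr2KO sum of the set, had the highest erythroid (11408 CPM), neutrophil (1010 CPM) and immediate early (15682 CPM) sums of the Fpr2KO libraries. A link between these sums and the set was not tested.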

How the data were processed

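The deposited table holds raw read counts per Ensembl gene for 10 libraries, whole numbers that the authors did not normalise. HTSeq 0.10.0 and FastQC 0.10.1 and the builds mm10 and GRCm38 are named in the submitters' processing notes. For the aligner, strand setting and treatment of ambiguous reads: not given in the sources used here. Groups and replicate numbers came from the sample titles.

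Symbols, coordinates and union exon lengths came from GENCODE M21 (GRCm38), which matched 52081 of 55414 identifiers. Within groups, no 2 libraries agreed within sampling noise (chi-square per degree of freedom at least 12.4). The test used edgeR 4.0.16 in R 4.3.3: filterByExpr left 14669 genes, libraries were scaled by TMM, and glmQLFit (robust) with glmQLFTest compared Fpr2KO with WT, two-sided, at an FDR of 0.05 over all genes tested. The SE is the log2 fold change divided by the square root of F. log2 CPM used a prior count of 2. RPKM divided CPM by exon kilobases. Alternatives were RLE and upper-quartile scaling, other filters, DESeq2 1.42.0, limma voom 3.58.1, no robust estimation, a replicate block and leaving out each library. The fit was also run on simulated counts in which every gene had the same dispersion, so that run cannot vouch for the fit on these libraries.

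The members and the 16 gene lists were chosen with earlier results of these data known, and 2 listed symbols, second names of other listed genes, were not found. Genes were named by rule: the set, its partners, up to 4 genes of each platelet list by p-value, and the 8 genes most like the set in pattern. Counting precision is limited for Gp1ba, Gp6 and Gp9, at 75 to 150 reads per group.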

Additional observations from a re-analysis of the deposited data

Results flagged for a closer look

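In groups of 5 libraries, a library was noted when its gap to the nearest other library exceeded 0.71 of the range of the group (Dixon's criterion at 95%). This was examined in 86 groups of values, of which chance alone would mark about 4.3, and 5 were marked. Pf4 was at 4.62 CPM in Fpr2KO replicate 1, and the next Fpr2KO library was at 2.41 CPM. Rufy4, one of the genes most like the set in pattern, was at 3.12 CPM in the same library, and the next was at 2.26 CPM. Cxcl3 was at 1.39 CPM in Fpr2KO replicate 2, and the next was at 0.585 CPM. The list of cytoskeleton and granule-forming genes, many of which other cells use too, summed to 4157 CPM in WT replicate 3, with the next WT library at 3667 CPM. The summed classical monocyte markers were at 925.6 CPM in Fpr2KO replicate 5, with the next Fpr2KO library at 711.4 CPM.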

How the results depend on the processing

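Over 18 alternatives, all 144 estimates of the 8 tested genes kept a lower level in Fpr2KO. These settings refit the same libraries or all but 1 of them, so the estimates are not independent checks. With all libraries, 0 of the 8 and 10 of all genes passed the FDR by edgeR. DESeq2 called 2 of the 8 (Ppbp and Tubb1) and 185 of all genes. With no filter on low counts, 62 of all genes passed. Leaving out 1 library gave from 0 to 2 of the 8, and from 8 to 51 of all genes: 2 (Ppbp and Tubb1) and 51 without WT replicate 5, and 26 of all genes without WT replicate 4 or without Fpr2KO replicate 2. WT replicate 5 was the lowest WT library for both Ppbp and Tubb1, and the cause of these changes in count was not tested. With the replicate number as a block, 1 of the 8 (Ppbp, log2 fold change -0.99, FDR = 0.0375 by edgeR) and 64 of all genes passed. The labels do not say that a number pairs libraries, so the numbers were not taken as pairs. The correlation of deviations between libraries of the same number ranged from -0.24 to 0.29, with 3 of 5 below 0. Between libraries of unlike number it ranged from -0.37 to 0.15. Replicates 2 (0.29) and 4 (0.25) lay above all unlike-number values, so these correlations do not settle whether numbers pair libraries. Over all alternatives the log2 estimate of Pf4 ranged from -1.13 to -0.65 and that of Gp6 from -0.77 to -0.36. The median log2 fold change of all genes was 0.00 with RLE and 0.03 with upper-quartile scaling. Gp1bb was not testable, and how the counting treated reads it shares with Sept5 is not known. Depth limits the other glycoprotein genes with few reads.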

Other observations

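Stem and progenitor cell markers, a list of 6 genes, were divided between 3 lower and 3 higher estimates in Fpr2KO (median log2 fold change -0.06). Kit, the stem cell factor receptor gene, was measured at 92.0 ± 10.1 CPM in Fpr2KO and 104.4 ± 15.1 CPM in WT (SD, n = 5 each), a log2 estimate of -0.18 (SE 0.10; edgeR, FDR = 0.596). Slamf1 was measured at 8.18 ± 2.05 CPM in Fpr2KO and 6.37 ± 0.551 CPM in WT, a log2 estimate of 0.36 (SE 0.16; edgeR, FDR = 0.5). T cell markers had 7 higher and 1 lower estimate, and B cell markers 8 higher, in lists written with earlier results of these data known.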
